A study of Homo sapiens with 6 samples.

Results

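The MYC, MAX and MXD network was described in HepG2, a human liver cancer cell line. Its 10 genes were taken by symbol from the gene tables of the study: MYC, MYCN, MYCL, MAX, MXD1, MXD3, MXD4, MXI1, MNT and MGA, out of 30987 genes counted. All 10 were found in both the count table and the FPKM table, and all 10 passed the filter on low counts. The cells of the siPAIP1 group carried siRNA3 against PAIP1, which encodes a protein that binds the poly(A)-binding protein and takes part in translation and mRNA decay. The cells of the Ctrl group carried a non-targeting siRNA. Both groups had 3 biological replicates of the same line, and both were transfected with Lipofectamine 2000. The methods of the study give a harvest after 48 h for the qPCR of PAIP1, and no separate time for sequencing. No genotype differed between them, and the study used a single siRNA for these libraries, so an effect of the knockdown and an effect particular to that siRNA cannot be told apart.

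MYC, MYCN and MYCL are related transcription factors that bind DNA only as dimers with MAX, mostly at E-boxes with the core CACGTG, and that drive genes of ribosome production, nucleotide synthesis and the cell cycle. The MXD proteins (MXD1, MXD3, MXD4 and MXI1) and MNT compete for MAX and for the same sites, and they silence genes there by bringing in the SIN3 corepressor with its histone deacetylases. MGA, a very large protein that has a T-box beside the dimerization domain, pairs with MAX in a Polycomb complex. In the liver MYC is low at rest, rises when the organ regenerates and is often raised in hepatocellular carcinoma.

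Of this network only MYCN passed the test, with less MYCN mRNA in siPAIP1 cells at 48.2% of the Ctrl level (ratio of mean CPM, n = 3 each). MYC, the most abundant member, had overlapping values in the groups and a 95% interval of its log2 fold change that ran from −0.11 to 0.19. MXD4, the most abundant repressor, and MYCL, the least abundant member, had higher values in every siPAIP1 library than in any Ctrl library, but neither passed the adjusted threshold. By edgeR's quasi-likelihood test, adjusted over the 15528 genes tested, 0 of the 10 members were called higher, against a background of 5.68% of all genes tested, and 1 was called lower, against 6.20%. With unadjusted edgeR p-values and a limit of 0.05, 2 members were higher (MYCL and MXD4) and 2 were lower (MYCN and MXD1). Over all 15528 genes tested, 2295 were higher and 2141 lower at that limit. DESeq2 and limma each gave 0 members higher and 1 lower after adjustment, with 1 and 1 before it. After adjustment DESeq2 called 819 genes higher and 1003 lower of the 30987 entered, which include any that it left without an adjusted p. The same counts were 505 and 410 of 18094 by limma on log2(FPKM + 1).

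The siRNA sequences and the member sequences that match them are shown because each strand of an siRNA can also pair through its seed, here bases 2 to 8 in capitals, with the 3′ ends of other mRNAs. The antisense (guide) strands of siRNA3 and of the control siRNA, and the sense strand of siRNA3, were as follows, without their 3′ overhangs.
siRNA3 antisense: uAUCAUCCaaguauggauc
siRNA3 sense: gAUCCAUAcuuggaugaua
control siRNA antisense: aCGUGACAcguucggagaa
The word GGATGAT, which pairs with the antisense seed of siRNA3, occurred in the 3′ UTR of 7.90% of 19535 canonical protein-coding transcripts of GENCODE release 44. It occurred in 4 of the 10 members, at 1 place each, shown here with the word in capitals.
MXD4: acatgttctggGGATGATggccttcaggg
MXD1: caatattacatGGATGATtttctcagatt
MXI1: atgaagcctgtGGATGATcaatcctttat
MGA: atggaaatgagGGATGATtccaggcgttt
The 3′ UTRs of MYCN, MYC, MYCL, MAX, MXD3 and MNT held no such word. Member 3′ UTRs with the word were 2378 to 4661 bases long, and those without it 378 to 2828 bases. A longer 3′ UTR has more places for any word. The word TATGGAT, which pairs with the seed of the sense strand, was found in MXI1 alone among the members and in 8.61% of all 3′ UTRs. The word that pairs with the antisense seed of the control siRNA was found in no member and in 2.66% of all 3′ UTRs. None of these words was tested for an effect on the mRNA. In the comparison below MXD4 and MGA had log2 fold changes above 0, and MXD1 and MXI1 had log2 fold changes below 0.

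The E-box windows of 2 repressor genes are shown because they are the only CACGTG words in the RefSeq promoter windows of the members (GRCh38.p14), with the E-box in capitals and each read on the strand of its gene.
MXD4 (chr4:2262330-2262359, minus strand): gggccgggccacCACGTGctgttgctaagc
MNT (chr17:2401236-2401265, minus strand): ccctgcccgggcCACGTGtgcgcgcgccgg
The MXD4 word began 238 bases and the MNT word 193 bases before the annotated start of transcription. There were 14 windows for 9 members, MYC having no entry, and 2 of them (14.3%) held CACGTG, read on both strands, against 2548 of 35116 windows (7.26%) in the whole table. The related word CACGCG, which does not overlap it, was in 3 member windows, those of MXD3, MXI1 and MGA (21.4%, against 11.4% of all windows). The MYCN window held neither word. These matches describe the letters of the windows, and no binding was measured.

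The counts summed to between 29313211 and 34157368 fragments in the siPAIP1 libraries and to between 31045623 and 34659866 in the Ctrl libraries. siPAIP1 replicate 3 stood apart: of 9249 genes with a mean CPM of at least 10, 371 exceeded the average of siPAIP1 replicates 1 and 2 more than 2-fold, and the same count was 0 to 7 in each of the other libraries. Values that rest on it are therefore given with and without it. Leaving it out also moved the edgeR calls over all genes, from 882 higher and 963 lower of 15528 to 1857 and 1952 of 15732. PAIP1 itself had 8.29, 6.54 and 5.47 FPKM in siPAIP1 replicates 1 to 3, against 26.8, 23.0 and 26.0 FPKM in Ctrl, a log2 fold change of −1.93 (SE 0.13). The hepatocyte markers summed to between 1750 and 2705 FPKM in siPAIP1 and between 3140 and 3326 FPKM in Ctrl. Of these 10 markers 5 were called lower (TF, APOA1, TTR, SERPINA1 and ALB), against 6.20% of all genes tested. Fibroblast markers summed to between 0.08 and 0.17 FPKM in siPAIP1 and 0.06 and 0.10 FPKM in Ctrl, and endothelial markers to between 0.17 and 0.29 FPKM and 0.23 and 0.31 FPKM. The leukocyte sum of 183 to 271 FPKM in siPAIP1 and 261 to 288 FPKM in Ctrl was nearly all LYZ, which averaged 229 and 270 FPKM, while PTPRC, the general leukocyte marker, had a mean CPM of 0 in siPAIP1 and 0.010 in Ctrl. The part of the lower hepatocyte markers in any result below was not tested. In such bulk libraries, fewer cells of a kind and less RNA per cell cannot be told apart.

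The levels were compared between members as FPKM, which is scaled by gene length. MYC ranked first and MYCL last of the 10 in each of the 6 libraries. By mean FPKM the order was MYC, MXD4, MYCN, MAX, MXD3, MNT, MXI1, MXD1, MGA and MYCL. Several neighbours in this order were not separated: the ranges of MXD3 and MNT overlapped in both groups, as did those of MYCN with MAX and of MXD1 with MGA in siPAIP1, and those of MXD4 with MYCN, of MNT with MXI1 and of MXI1 with MXD1 in Ctrl. MYCN lay between rank 2 and rank 5 over the libraries, and MNT between rank 4 and rank 7. Its values and those of MXD4 were close in Ctrl, at 10.9 to 12.4 FPKM for MYCN and 11.7 to 14.6 FPKM for MXD4, and lay far apart in siPAIP1, at 5.0 to 6.38 FPKM for MYCN and 15.9 to 17.0 FPKM for MXD4.

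**Figure D1:**
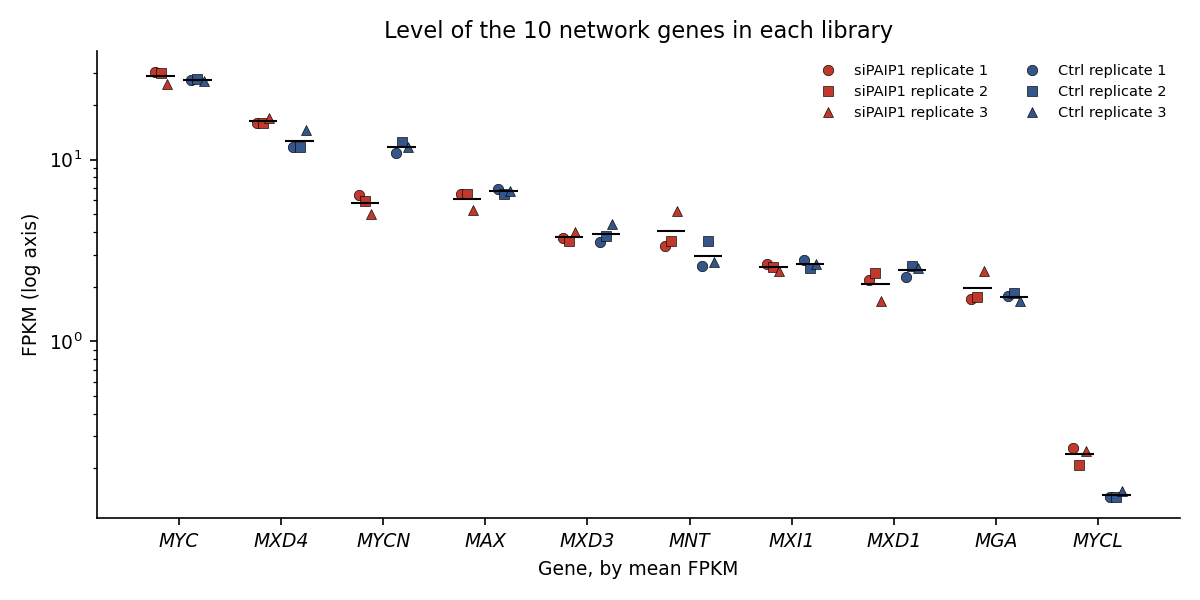
FPKM of the 10 network genes (log axis) in each of the 6 libraries, ordered by mean FPKM; points are libraries, with the symbol giving the replicate, and bars are group means (n = 3 each, siPAIP1 left of Ctrl for each gene). The 3 siPAIP1 values of MYCN, between 5.0 and 6.38, lie below the 3 Ctrl values, between 10.9 and 12.4, while the MYC values of the groups overlap.

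MYCN, a paralog of MYC best known from its amplification in neuroblastoma, lies on chromosome 2 (GRCh38, 15940550 to 15947007, plus strand, 3 exons in GENCODE 44). It had 6.38, 5.91 and 5.0 FPKM in siPAIP1 replicates 1 to 3, against 10.9, 12.4 and 11.8 FPKM in Ctrl replicates 1 to 3. These values rest on 606, 567 and 457 fragments in siPAIP1 and on 1057, 1208 and 1026 fragments in Ctrl. Every siPAIP1 library was thus below every Ctrl library, and siPAIP1 replicate 3 was the lowest. As normalized counts MYCN averaged 16.3 ± 1.26 CPM in siPAIP1 and 33.9 ± 2.40 CPM in Ctrl (SD, n = 3 each). The log2 fold change was −1.05 (SE 0.093, 95% interval −1.27 to −0.84, edgeR adjusted p = 0.0017). MYCN was also the only member that met the study's criterion for a DEG, an adjusted p under 0.05 with at least a 2-fold difference, which 1.10% of all genes tested met on the lower side. The adjusted p was under 0.05 in 14 of 14 alternative analyses, with log2 fold changes between −1.12 and −0.91. The value of −0.91, from limma on log2(FPKM + 1), is less than a 2-fold difference, so the DEG criterion was not met there. Without siPAIP1 replicate 3 it was −1.01 (edgeR adjusted p = 5.29e-07).

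The genes around MYCN did not pass the test. The antisense gene MYCNOS, which overlaps 1700 bases of MYCN from the opposite strand, had 15, 17 and 8 fragments in siPAIP1, against 19, 13 and 27 fragments in Ctrl, so the groups overlapped. Its log2 fold change of −0.61 had a standard error of 0.39 (edgeR adjusted p = 0.330). It was −0.40 without siPAIP1 replicate 3 and −0.27 without Ctrl replicate 3. Since the use of strand in the counting was not given, reads of MYCN and MYCNOS may not be fully separated. MYCNOS held a mean of only 16.5 fragments per library. The canonical transcripts of both genes shared no exon, and their other transcripts were not compared. DDX1, an RNA helicase gene next to MYCN that is often amplified with it, had a log2 fold change of −0.05 (SE 0.10, edgeR adjusted p = 0.751). That of NBAS, a gene of vesicle transport further along the chromosome, was −0.07 (SE 0.072, edgeR adjusted p = 0.552). FAM49A was counted in at most 3 fragments per library and was not tested, and MYCNUT was not in the count table.

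MYC is the general growth regulator of the family and is broadly expressed in dividing cells. It had 30.4, 30.1 and 26.1 FPKM in siPAIP1 replicates 1 to 3, against 27.3, 27.9 and 27.1 FPKM in Ctrl. In FPKM, siPAIP1 replicates 1 and 2 were above all Ctrl libraries and replicate 3 was below them, so the groups overlapped. In CPM they overlapped as well, with siPAIP1 replicate 3 at 91.1 inside the Ctrl range of 89.4 to 94.2. As normalized counts MYC averaged 94.4 ± 2.98 CPM in siPAIP1 and 91.8 ± 2.39 CPM in Ctrl (SD, n = 3 each), and the log2 fold change was 0.04 (SE 0.065, edgeR adjusted p = 0.712). PVT1, the long non-coding RNA gene beside MYC, had a log2 fold change of −0.03 (SE 0.083, edgeR adjusted p = 0.837), with 15.3, 16.4 and 16.2 CPM in siPAIP1 and 15.7, 17.6 and 15.7 CPM in Ctrl. FAM84B, another neighbour, stayed under 1.2 CPM in all 6 libraries and did not pass the test (log2 fold change −0.47, SE 0.25, edgeR adjusted p = 0.256), and CASC11 and POU5F1B had too few fragments to be tested.

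MYCL, the third family member, first found in small cell lung cancer, was expressed at a very low level. It had 47, 38 and 43 fragments in siPAIP1, against 25, 26 and 25 fragments in Ctrl, or 0.26, 0.21 and 0.25 FPKM against 0.14, 0.14 and 0.15 FPKM. The siPAIP1 values were all above the Ctrl values. The log2 fold change was 0.72 (SE 0.21, 95% interval 0.23 to 1.21), with an edgeR adjusted p of 0.068. It crossed the threshold under the stricter filter of 1 CPM in 3 libraries, which tests fewer genes (edgeR adjusted p = 0.0457), and in no other alternative.

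The family members were then set against each other within each library. The log2 ratio of MYCN to MYC FPKM was −2.25, −2.35 and −2.38 in siPAIP1 replicates 1 to 3, against −1.33, −1.16 and −1.20 in Ctrl. All siPAIP1 ratios lay below all Ctrl ratios, with a difference of −1.09 between the means of −2.33 ± 0.068 in siPAIP1 and −1.23 ± 0.086 in Ctrl (SD, n = 3 each). The two-sided exact permutation p was 0.1, the smallest that 3 against 3 libraries can give. Of the summed FPKM of MYC, MYCN and MYCL, MYCN made up 16.5% ± 0.65 in siPAIP1 and 29.8% ± 1.24 in Ctrl, and MYC made up 82.8% ± 0.64 and 69.9% ± 1.24. The sum itself was 37.0, 36.2 and 31.3 FPKM in siPAIP1, against 38.4, 40.4 and 39.1 FPKM in Ctrl. The siPAIP1 sums were all below the Ctrl sums, and their mean was 88.6% of the Ctrl mean. The family sum thus differed far less between the groups than MYCN did.

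**Figure D2:**
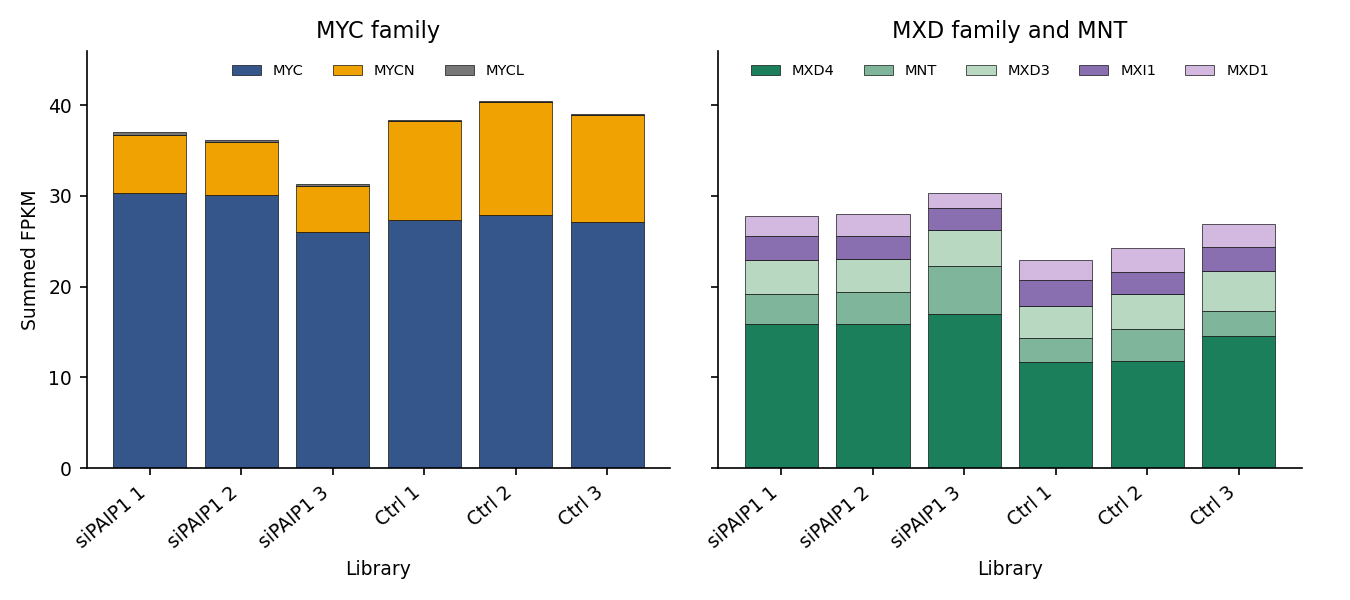
Summed FPKM in each library for the MYC family (left panel) and for the MXD family with MNT (right panel), stacked by gene, with siPAIP1 libraries left of Ctrl libraries. The MYCN share of the left bars is 15.97% to 17.2% in siPAIP1 and 28.4% to 30.7% in Ctrl, and the right bars reach 27.7 to 30.4 FPKM in siPAIP1 and 22.9 to 26.9 FPKM in Ctrl.

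MAX, the shared dimerization partner in this network, had 6.44, 6.5 and 5.29 FPKM in siPAIP1, against 6.87, 6.48 and 6.74 FPKM in Ctrl. The groups overlapped in FPKM, whereas in CPM the siPAIP1 libraries (25.3 to 28.1) were all below the Ctrl libraries (29.9 to 31.5). The log2 fold change was −0.17 (SE 0.077, 95% interval −0.35 to 0.01, edgeR adjusted p = 0.193). The sum of the MYC family over MAX was 5.74 ± 0.18 in siPAIP1 and 5.87 ± 0.34 in Ctrl (SD, n = 3 each), and these ratios overlapped between the groups. FNTB and its readthrough gene lie over MAX on the opposite strand, and their canonical transcripts shared no exon with that of MAX.

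Among the repressors, MXD4 was the most abundant. It had 15.9, 15.9 and 17.0 FPKM in siPAIP1, against 11.7, 11.8 and 14.6 FPKM in Ctrl. Every siPAIP1 value was above every Ctrl value, and replicate 3 was the highest library of either group. As normalized counts MXD4 averaged 72.4 ± 7.08 CPM in siPAIP1 and 57.3 ± 6.58 CPM in Ctrl (SD, n = 3 each), a log2 fold change of 0.34 (SE 0.11, 95% interval 0.08 to 0.59, edgeR adjusted p = 0.089). Without siPAIP1 replicate 3 the fold change was smaller and the call was made (log2 fold change 0.25, SE 0.082, edgeR adjusted p = 0.0354). In the fits that left out any other library the adjusted p lay at 0.099 or above.

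MXD1, a repressor that is typically induced when cells leave the cycle and differentiate, had 2.17, 2.37 and 1.66 FPKM in siPAIP1, against 2.27, 2.59 and 2.52 FPKM in Ctrl. The groups overlapped in FPKM, with siPAIP1 replicate 3 the lowest, and did not overlap in CPM (10.9 to 14.04 CPM in siPAIP1, 14.3 to 16.4 CPM in Ctrl). The log2 fold change was −0.29 (SE 0.11, 95% interval −0.55 to −0.02, edgeR adjusted p = 0.151), and it was −0.19 without siPAIP1 replicate 3. Over the network as a whole, the CPM values of the groups did not overlap for 2 members above Ctrl (MYCL and MXD4), where 19.0% of all genes tested had siPAIP1 above, and for 3 members below Ctrl (MYCN, MAX and MXD1), where 17.6% of all genes tested had siPAIP1 below.

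MXD3, the MXD member expressed in cycling cells in mouse, had 3.69, 3.57 and 4.02 FPKM in siPAIP1 and 3.53, 3.81 and 4.42 FPKM in Ctrl. The groups overlapped, and the log2 fold change was −0.08 (SE 0.12, edgeR adjusted p = 0.675). It was −0.19 without siPAIP1 replicate 3 and −0.0065 without Ctrl replicate 3, and between −0.16 and −0.02 when any other library was left out. MXD3 lies across PRELID1, which is on the opposite strand and held a mean of 11222 fragments per library. RAB24, with a mean of 779 fragments, overlaps MXD3 by 2284 bases on the same strand. Neither gene shares an exon with MXD3 in the canonical transcripts. The MXD3 values are uncertain if the counting did not use strand, and the use of strand would not separate RAB24. MXI1, the MXD member also called MXD2, had 2.67, 2.58 and 2.45 FPKM in siPAIP1 and 2.82, 2.52 and 2.67 FPKM in Ctrl, again with overlap (log2 fold change −0.08, SE 0.084, edgeR adjusted p = 0.536).

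The values of MNT and MGA depended on siPAIP1 replicate 3. MNT, a broadly expressed repressor that is present together with MYC in dividing cells, had 3.33, 3.56 and 5.21 FPKM in siPAIP1, against 2.60, 3.57 and 2.72 FPKM in Ctrl. Replicate 3 was the highest of all 6 libraries, and the other siPAIP1 values lay within the Ctrl range. The log2 fold change was 0.43 (SE 0.23, 95% interval −0.10 to 0.96, edgeR adjusted p = 0.251), and it was 0.14 (SE 0.12) without that library. MGA had 1.71, 1.76 and 2.43 FPKM in siPAIP1, against 1.77, 1.84 and 1.67 FPKM in Ctrl, so that replicate 3 alone lay above the Ctrl range. Its log2 fold change was 0.14 (SE 0.17, edgeR adjusted p = 0.613) with all libraries and −0.10 (SE 0.076) without siPAIP1 replicate 3.

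The summed FPKM of MXD1, MXD3, MXD4, MXI1 and MNT was 27.7, 27.97 and 30.4 in siPAIP1, against 22.9, 24.3 and 26.9 in Ctrl, with all siPAIP1 sums above the Ctrl sums. FPKM leaves out the library scaling factors used for CPM, which were 1.01 to 1.03 in siPAIP1 and 0.96 to 0.99 in Ctrl. The nearest sums, 27.7 in siPAIP1 and 26.9 in Ctrl, are close beside those factors, so this separation may not hold in CPM. MXD4 made up 56.7% ± 0.59 of the summed FPKM in siPAIP1 and 51.3% ± 2.84 in Ctrl (SD, n = 3 each). The MYC family sum divided by this repressor sum was 1.33, 1.29 and 1.03 in siPAIP1, against 1.67, 1.67 and 1.45 in Ctrl. The siPAIP1 ratios were again all below the Ctrl ratios, and in both groups replicate 3 had the lowest ratio. These sums describe mRNA levels and carry no test, since they were formed over members chosen with results known. The amounts of protein were not measured in these libraries.

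**Figure D3:**
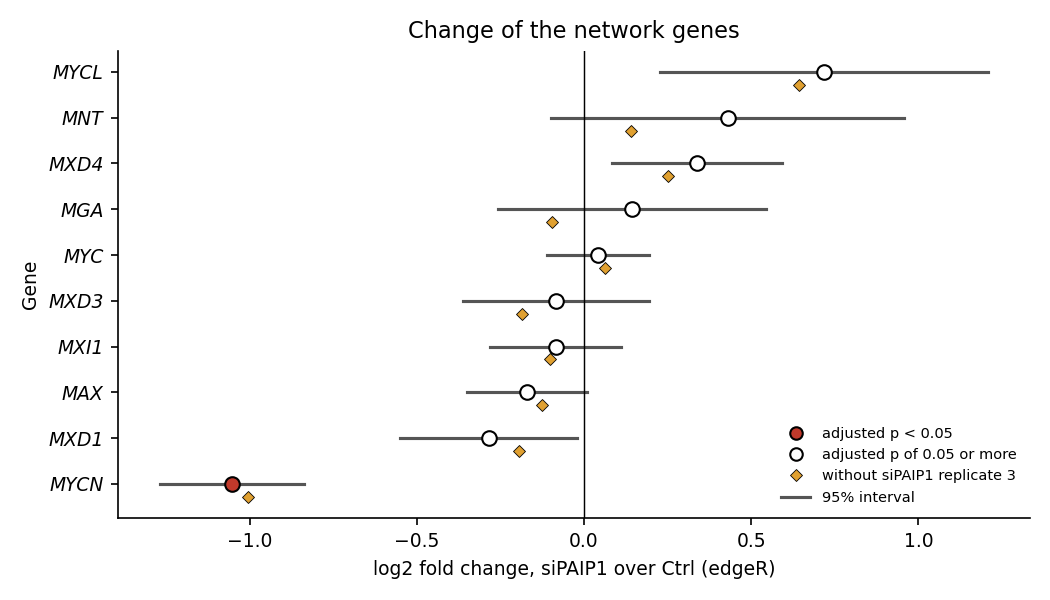
Log2 fold change (siPAIP1 over Ctrl, edgeR) of each member with its 95% interval, ordered by size, and the same value without siPAIP1 replicate 3 (diamonds). MYCN at −1.05 is the only filled point (adjusted p under 0.05), and MGA lies at 0.14 with all libraries and at −0.10 without siPAIP1 replicate 3.

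The genes whose profiles over the 6 libraries lay closest to that of MYCN were FZD4, CCL14, CIDEB, SERPINF2 and SCPEP1. Closeness was the Euclidean distance between log2 CPM profiles, each centred on its own mean, over the 10452 protein-coding genes whose mean log2 CPM was 2 or more. These 5 had distances of 0.10 to 0.21 from MYCN, where the median gene had 1.34. FZD4, a Wnt receptor gene, was closest, with 35.9, 31.4 and 29.4 CPM in siPAIP1, against 65.2, 68.9 and 66.7 CPM in Ctrl. CIDEB, a gene of lipid droplets and lipoprotein secretion in the liver, had 32.3, 28.97 and 25.98 CPM in siPAIP1, against 59.4, 60.2 and 61.6 CPM in Ctrl. In both genes, as in MYCN, siPAIP1 replicate 3 was the lowest library. For MYC the closest genes were UBXN10, NUP85, IGF2BP3, YY1 and SHCBP1, at distances of 0.03 to 0.05, where the median gene had 0.36. Such profiles are shared by choice of the rule and are a description over 6 libraries.

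MLX, the MAX-like partner of the glucose-sensing factors MLXIP (MondoA) and MLXIPL (ChREBP), forms a parallel branch of the network. With their targets TXNIP and ARRDC4 this list had 5 genes tested. Of these 5 genes, 0 were called higher and 0 lower by edgeR, against 5.68% and 6.20% of all genes tested. An unadjusted p under 0.05 was reached by 0 on the higher side and 1 on the lower side (edgeR). Of all 15528 genes tested, 2295 and 2141 reached it. DESeq2 and limma also called 0 genes of this list in either direction. Its median log2 fold change was −0.05, beside 0.03 over all genes tested. MLXIP reached 133 CPM in siPAIP1 replicate 3 against 68.0 and 66.4 CPM in replicates 1 and 2, and 66.0 to 88.1 CPM in Ctrl. ARRDC4, an arrestin-like gene that glucose induces, had 8.37, 9.89 and 7.90 CPM in siPAIP1, against 10.9, 10.9 and 11.6 CPM in Ctrl, so the groups did not overlap. It did not pass the test with all libraries (log2 fold change −0.35, edgeR adjusted p = 0.078), and 1 gene of the list, ARRDC4, was called lower when siPAIP1 replicate 3 was left out. In that fit 1952 of all 15732 genes tested were called lower.

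Of the 17 genes of the SIN3-HDAC corepressor, 1 was called higher and 1 lower, close to the 5.68% and 6.20% of all genes tested, and the median log2 fold change was 0.03. HDAC1, a histone deacetylase of the complex, had 187, 183 and 176 CPM in siPAIP1, against 144, 143 and 132 CPM in Ctrl, a log2 fold change of 0.38 (SE 0.071, edgeR adjusted p = 0.0157). BRMS1L, a smaller subunit, had 36.3, 35.03 and 31.7 CPM in siPAIP1, against 46.3, 48.8 and 45.97 CPM in Ctrl, a log2 fold change of −0.45 (SE 0.079, edgeR adjusted p = 0.0131). The groups did not overlap for either gene. Neither was called by limma on log2(FPKM + 1), at adjusted p of 0.0515 and 0.063, and HDAC1 was not called with the replicate block (edgeR adjusted p = 0.0557). With each library left out in turn HDAC1 stayed called in 1 of 6 fits, that without siPAIP1 replicate 3, and BRMS1L in 2 of 6, those without siPAIP1 replicate 1 or 3. Their adjusted p then ranged up to 0.0888 and 0.064, while the log2 fold changes stayed within 0.34 to 0.40 and within −0.50 to −0.40. Without siPAIP1 replicate 3, 2 genes of the complex were called higher, where 1857 of all 15732 genes tested were.

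Of 16 cofactors that MYC uses at its targets, 1 was called higher by edgeR, the elongation kinase gene CDK9, and 0 lower. Of all genes tested, 5.68% were called higher and 6.20% lower. Before adjustment 1 cofactor was higher and 0 were lower (edgeR, limit 0.05), where 2295 and 2141 of all 15528 genes tested were. DESeq2 and limma also called 1 higher and 0 lower. CDK9 had 36.4, 36.1 and 44.1 CPM in siPAIP1, against 22.5, 22.9 and 22.3 CPM in Ctrl, with no overlap. Its log2 fold change was 0.79 (SE 0.097, edgeR adjusted p = 0.0047), and it was called in 14 of 14 alternatives. The median of the list was 0.20 with all libraries. It was 0.07 without siPAIP1 replicate 3, when 2 cofactors and 1857 of all 15732 genes tested were called higher. TRRAP, the scaffold of the acetyltransferase complexes, showed the difference, with 91.8 CPM in siPAIP1 replicate 3 against 35.6 and 34.0 CPM in replicates 1 and 2, and 30.5 to 40.3 CPM in Ctrl.

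Of 16 genes that control the stability of MYC proteins, 0 were called higher and 1 lower by edgeR, DESeq2 and limma alike. By edgeR 5.68% and 6.20% of all genes tested were called. Before adjustment 2 genes of the list were higher and 4 lower (edgeR, limit 0.05), where 2295 and 2141 of all 15528 genes tested were. USP13, a deubiquitinase gene, had 19.9, 21.05 and 21.9 CPM in siPAIP1, against 39.3, 42.1 and 37.9 CPM in Ctrl, a log2 fold change of −0.93 (SE 0.080, edgeR adjusted p = 0.0017), and was called in 14 of 14 alternatives. FBXW7 and AURKA, known for the degradation and for the protection of MYC proteins, had log2 fold changes of 0.15 and −0.07 with overlapping groups. HUWE1, a ubiquitin ligase gene, had 357 CPM in siPAIP1 replicate 3 against 106 and 105 CPM in replicates 1 and 2, and 102 to 132 CPM in Ctrl, and did not pass the test (edgeR adjusted p = 0.319). Leaving out siPAIP1 replicate 3 gave 1 gene of this list called higher and 3 lower, where 1857 and 1952 of all 15732 genes tested were called.

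The targets of the network were taken from a list of growth genes, mostly of ribosome production and nucleotide synthesis, and from a list of classic targets. Of the 57 growth targets 56 were tested, with 28 log2 fold changes above 0 and 28 below 0 and a median of 0.0025. Of these, 1 was called higher and 1 lower, against 5.68% and 6.20% of all genes tested. NOLC1, a nucleolar protein gene, had 193, 196 and 214 CPM in siPAIP1, against 118, 116 and 99.5 CPM in Ctrl, a log2 fold change of 0.85 (SE 0.091, edgeR adjusted p = 0.0030), and was called in 14 of 14 alternatives. TMEM97, a sterol-regulated membrane protein gene, had 96.8, 95.5 and 79.9 CPM in siPAIP1, against 129, 118 and 116 CPM in Ctrl (log2 fold change −0.42, SE 0.095, edgeR adjusted p = 0.0332). When a library was left out it stayed called in 1 of 6 fits, that without siPAIP1 replicate 3, with an adjusted p of up to 0.137. Leaving out siPAIP1 replicate 3 gave 6 growth targets called higher and 5 lower, with a median of 0.02. In that fit 1857 and 1952 of all 15732 genes tested were called higher and lower.

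The E-box CACGTG was in 25 of 61 promoter windows of the growth targets (41.0%) and in 7 of 19 windows of the classic targets (36.8%), where 7.26% of all windows held it. Of the tested growth targets, 11 entered neither group here, NOLC1 among them. The 24 growth targets with the word had a median log2 fold change of 0.07, between −0.32 and 0.48, and the 21 without it had a median of 0.01, between −0.42 and 0.73. These ranges overlapped over most of their length. The classic targets were ordered the other way, with a median of −0.06 for the 7 with the word, 2 of them above 0, and 0.05 for the 10 without it, and 3 in neither group. In the SIN3-HDAC list 1 of 23 windows (4.35%) held the word.

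Of 20 classic targets, 2 were called higher and 1 lower, against 5.68% and 6.20% of all genes tested. The median of the list was −0.03. CCND2, the cyclin D2 gene, had 62.0, 71.3 and 76.7 CPM in siPAIP1, against 26.7, 26.2 and 28.1 CPM in Ctrl, the largest log2 fold change of the list at 1.38 (SE 0.095, edgeR adjusted p = 0.0009). TFAM, the main packaging factor of mitochondrial DNA, had 59.0, 55.9 and 50.5 CPM in siPAIP1, against 92.0, 83.1 and 85.3 CPM in Ctrl (log2 fold change −0.65, SE 0.084, edgeR adjusted p = 0.0051). Both were called in 14 of 14 alternatives and their groups did not overlap. EIF4A1, an RNA helicase gene of translation initiation, was higher by 0.40 on the log2 scale (SE 0.069, edgeR adjusted p = 0.0126), and with a library left out it stayed called in 2 of 6 fits, those without siPAIP1 replicate 1 or 3. Without siPAIP1 replicate 3, 4 classic targets were called higher and 3 lower, where 1857 and 1952 of all 15732 genes tested were. Classic targets such as ODC1 (−0.19), NCL (−0.06) and CAD (0.47) did not pass the test.

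Of the 8 genes that MYC is known to repress, 7 were tested, of which 1 was called higher and 4 lower, where 5.68% and 6.20% of all genes tested were called, with a median of −0.27. The count called lower fell to 1 by limma with either pseudocount and with the replicate block, to 2 with upper-quartile factors, and to 1 or 2 when any library other than siPAIP1 replicate 3 was left out. CDKN2B, the gene of the CDK inhibitor p15, had 5.98, 6.01 and 7.66 CPM in siPAIP1, against 2.25, 2.41 and 2.20 CPM in Ctrl, a log2 fold change of 1.52 (SE 0.15, edgeR adjusted p = 0.0021). CEBPA, a transcription factor gene of hepatocyte differentiation, had 130, 116 and 114 CPM in siPAIP1, against 183, 184 and 192 CPM in Ctrl (log2 fold change −0.63, SE 0.076, edgeR adjusted p = 0.0044). Both were called in 14 of 14 alternatives. The CDK inhibitor gene CDKN1A (−0.37), the stress gene GADD45A (−0.28) and NDRG2 (−0.37), a gene of differentiated cells, were also called lower by edgeR, at adjusted p of 0.0367, 0.0412 and 0.0118. With libraries left out in turn, CDKN1A and GADD45A stayed called in 1 of 6 fits each, that without siPAIP1 replicate 3, and NDRG2 in 3 of 6, those without siPAIP1 replicate 1 or 3 or Ctrl replicate 2. The hepatocyte markers given above were lower in the same libraries as CEBPA, and their part in its lower level was not tested.

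**Figure D4:**
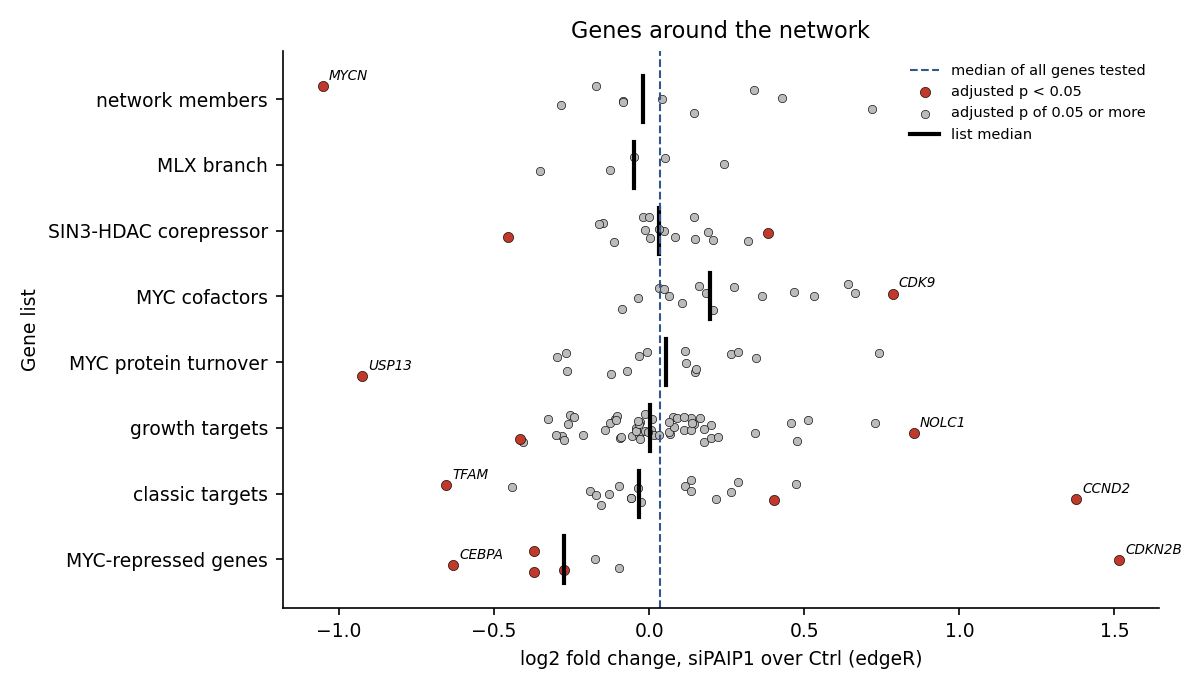
Log2 fold change (siPAIP1 over Ctrl, edgeR) of every tested gene of the network and of 7 lists around it; each point is a gene, red where the adjusted p was under 0.05, bars are list medians and the dashed line is the median of all genes tested (0.03). The 56 growth targets center on 0.0025, while CCND2 (1.38) and CDKN2B (1.52) lie farthest to the right and MYCN (−1.05) farthest to the left.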

How the data were processed

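The 6 libraries were poly(A) RNA of HepG2 cells, read as pairs (3 siPAIP1, 3 Ctrl). The counts are raw uniquely mapped fragments per gene, made by the authors with bcl2fastq, FASTX-Toolkit 0.0.13 and TopHat2 (GRCh38, up to 4 mismatches) and deposited as raw values. For the FPKM table the authors scaled these by exon length and by mapped fragments of the library, with 2 decimals kept. No source used here gives the counting tool, its use of strand or the annotation.

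Counts were fitted in R 4.3.3 with edgeR 4.0.16 (TMM, filterByExpr, glmQLFit and glmQLFTest on group alone), and p-values were adjusted by Benjamini-Hochberg over 15528 genes. CPM values used the TMM-scaled library sizes. The standard error is the fitted log2 change over the root of its F statistic. Alternatives were RLE and upper-quartile factors, no filter or 1 CPM in 3 libraries, DESeq2 1.42.0, limma 3.58.1 on log2(FPKM + 1) and log2(FPKM + 0.1) with a mean FPKM of at least 0.1, a replicate block, and leaving out each library. Scripts were tested on simulated data. The ratio of MYCN to MYC was compared by exact permutation over samples. Sequences were read from RefSeq promoters, GENCODE release 44 on GRCh38 and the study's siRNA table with Python 3.11.15, pandas 2.3.3 and numpy 2.4.6, and figures were drawn with matplotlib 3.10.9.

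The members and the 14 gene lists were chosen with earlier results of these data known. Named genes are the 10 members, listed neighbours of MYCN and MYC, PAIP1, up to 6 members of each list with an adjusted p under 0.05, and the 5 most alike genes of MYCN and MYC. MLXIP, ARRDC4, TRRAP, HUWE1, FBXW7, AURKA, ODC1, NCL and CAD were named after their values were seen.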

Additional observations from a re-analysis of the deposited data

How the results depend on the processing

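The count of members called lower stayed at 1, that of MYCN, in all 14 alternatives. The count called higher was 0, apart from 1 under the filter of 1 CPM in 3 libraries (MYCL) and 1 without siPAIP1 replicate 3 (MXD4), so it ranged from 0 to 1 when libraries were left out. Of 140 member values, 137 kept direction and side of the threshold, and MGA reversed (−0.097 without siPAIP1 replicate 3, in a range of −0.097 to 0.25 with a library left out). Of 335 values of 24 other named genes, 281 did so, 52 lost the call, and 2 reversed (DDX1, from −0.11 to 0.039, above 0 without siPAIP1 replicate 3, and PVT1, from −0.066 to 0.020, above 0 without Ctrl replicate 2). The cause was not tested. The difference in the log2 ratio of MYCN to MYC ranged from −1.14 to −1.06 with a library left out, and was −1.09 from counts.

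Over all genes, 882 were called higher and 963 lower, against 505 and 410 by limma with a pseudocount of 1, 556 and 437 with 0.1, and 187 to 1857 higher and 269 to 1952 lower with a library left out. The replicate block gave 366 and 459, kept MYCN (adjusted p = 0.0149, edgeR) and the same 0 and 1 members, and gave an exact permutation p of 0.25 for the ratio. That p is the smallest that swaps within replicate numbers can give, and the difference stayed at −1.09. No source used here says whether same-numbered libraries were handled together. The correlations of their deviations were 0.26, −0.28 and −0.15, and not every library correlated best with its own number. The highest value was 0.39, between siPAIP1 replicate 3 and Ctrl replicate 2. With 3 libraries per group these correlations cannot settle whether the libraries were paired. MYCL rests on 25 to 47 fragments per library, which limits its precision.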
